A study of Mus musculus with 2 samples.

Results

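The calcitonin gene-related peptide (CGRP) and adrenomedullin genes were examined in mouse embryonic ureters labelled Smad4cKO and control. The 7 genes were Ramp1, Ramp2, Ramp3, Calcrl, Adm, Calca and Calcb, and every non-control array probe carrying one of these gene names was taken. This gave 10 probes among the 39429 non-control probes of the array: 3 for Ramp1, 2 for Calca and 1 for each of the other 5 genes. Of the 10, 8 passed the brightness filter, as did 26701 probes of the whole array. Of the whole array, 26669 probes also kept a ratio on both arrays once outlier spots were left out, and these are the tested probes. The genes were chosen on the array ratios themselves: a Ramp1 probe was already known to have a large ratio in this comparison. All their ratios are therefore given as a description, without a test.

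RNA of ureters dissected from E14.5 embryos (staged in days after conception) was hybridised to 2 two-colour Agilent arrays. On each array 1 channel held RNA labelled Smad4cKO, of genotype Tbx18(cre/+);Smad4(fl/fl), and the other held RNA labelled control, of genotype Tbx18(+/+);Smad4(fl/+), all on the NMRI strain. Array 1 paired female embryos and had the labelled Smad4cKO RNA in green. Array 2 paired male embryos and had it in red, so that sex and dye changed together. Both genotypes thus carry a floxed Smad4 allele. The Smad4cKO embryos carry in addition a second floxed allele and a Tbx18 allele with Cre recombinase, and whatever that Tbx18 allele does by itself cannot be told apart from the loss of Smad4. Cre is made where the Tbx18 locus is active, which in the ureter is the mesenchyme around the epithelium. The labels do not state how many embryos entered each RNA, and nothing says that the pairs came from separate litters. The spread between the arrays may therefore be technical, and 2 arrays limit the precision of every value.

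CGRP and adrenomedullin are related peptides that act through one receptor protein, CALCRL. CALCRL reaches the cell surface together with a receptor activity-modifying protein (RAMP): with RAMP1 it binds CGRP, and with RAMP2 or RAMP3 it binds adrenomedullin. CGRP is stored in sensory nerve endings, and in the ureter it is known as a relaxant of smooth muscle, whereas adrenomedullin is made by many cell types and acts strongly on blood and lymphatic vessels.

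The 3 Ramp1 probes recognise different stretches of the gene on chromosome 1, plus strand (mm9), and their sequences are shown because their ratios differ. The first, A_51_P348665, is assigned to transcript NM_016894. Its 60 bases are placed at chr1:93093453-93119708, a span of 26256 bases, so it matches the genome in separate blocks and is called the split-match probe here. The second, A_55_P1982996, is assigned to transcript NM_001168392 and lies inside that span, at chr1:93103294-93103353. It is called the alternative-transcript probe. The third, A_52_P172014, is assigned to NM_016894 as well and lies 1720 bases downstream of the span, at chr1:93121428-93121487. The split-match probe is printed whole and the first 30 bases of the others are printed, 5′ to 3′, as the scanner files give them:
A_51_P348665: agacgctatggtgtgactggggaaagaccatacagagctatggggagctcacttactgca
A_55_P1982996: cttcttaggtgttccccctctttctatact
A_52_P172014: tgggagtggatctccatccattcctcaaaa
Their G and C content was 51.7%, 38.3% and 45.0% in this order. None of the 3 shared a run of 16 or more bases with any other probe on the array. No exon annotation of this build was used here, so exons, introns and UTRs are not assigned to the probes.

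Calca gives rise by alternative splicing to calcitonin or to CGRP, and the scanner files assign its 2 probes to different transcripts. Exons were not checked for these probes either. They are shown because the probe of the CGRP form alone was well above background. Probe A_52_P154101 is assigned to the CGRP transcript NM_001033954 and lies at chr7:121775204-121775263, minus strand. Probe A_55_P2139942 is assigned to the calcitonin transcript NM_007587 and lies at chr7:121776948-121777007, minus strand. The first 30 bases of each are:
A_52_P154101: tattgtgcatcgtgttgtatgtgactctgt
A_55_P2139942: aagaatggtatctgaaatccccagtgggtg

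By the dye labels, the split-match Ramp1 probe was dimmer in the Smad4cKO-labelled RNA on each array. This probe had a corrected intensity of 394 on array 1 and 373 on array 2 in the channel labelled Smad4cKO, against 900 and 818 in the channel labelled control. These intensities are in arbitrary units after background correction with an offset of 50 and loess normalisation within each array. The arrays were not normalised to each other, so intensities are compared within an array. The genes were chosen on the large ratio of this probe, so nothing is read from its size. The log2 ratio of labelled Smad4cKO over labelled control was -1.19 on array 1 and -1.13 on array 2, with a mean of -1.16 ± 0.04 (SD, n = 2), or 2.24-fold brighter in the labelled control. The 2 arrays used opposite dyes, and the size and the direction of the ratio were nearly equal on both.

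The direction rests on the dye labels and the titles run against it. The authors' deposited table, titled with Smad4cKO first, gives signed folds of 2.50 and 2.64 for the split-match Ramp1 probe, which read as titled would be brighter in Smad4cKO. For Myh11, the smooth muscle myosin heavy chain, the authors' deposited table gives -4.66 and -7.30, where the dye labels give log2 ratios of 2.08 and 2.65. The loci at which the genotypes differ do not settle it: a Smad4 probe gave -0.69 and -0.14, another gave -0.31 and -0.49, and Tbx18 gave 0.07 and 0.81. Neither the labels nor the files say whether those probes lie in the deleted parts. Ratios below follow the dye labels. Were the dye labels wrong on arrays 1 and 2 alike, each sign below would turn and its size would stay.

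Feature Extraction, the scanner software, gave processed signals in the same order. They were 190 and 193 for the split-match Ramp1 probe in the channel labelled Smad4cKO, against 476 and 513 in the channel labelled control. From these the log2 ratio was -1.32 on array 1 and -1.41 on array 2, and the error that the software attaches to a spot's ratio was 0.24 and 0.25 on the log2 scale. The probe was well above background in all 4 channels, with a raw signal of 6.78 to 15.9 times the local background. With an offset of 10 in place of 50 in the background correction the mean was -1.26.

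The alternative-transcript Ramp1 probe did not share this difference. Its corrected intensity was 291 and 341 in the channel labelled Smad4cKO on arrays 1 and 2, against 307 and 316 in the channel labelled control. The log2 ratio was -0.08 on array 1 and 0.11 on array 2, with a mean of 0.01 ± 0.13 (SD, n = 2). This probe was also well above background in all 4 channels. The third Ramp1 probe was not well above background in any channel, although it is assigned to the same transcript as the split-match probe. Its processed signals were 5.98 and 7.49 in the channel labelled Smad4cKO and 11.01 and 13.7 in the channel labelled control, with software errors of 1.65 and 1.44 on the log2 scale, and no fold is taken from it. The plot of channel intensities shows these values for each tested probe.

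**Figure D1:**
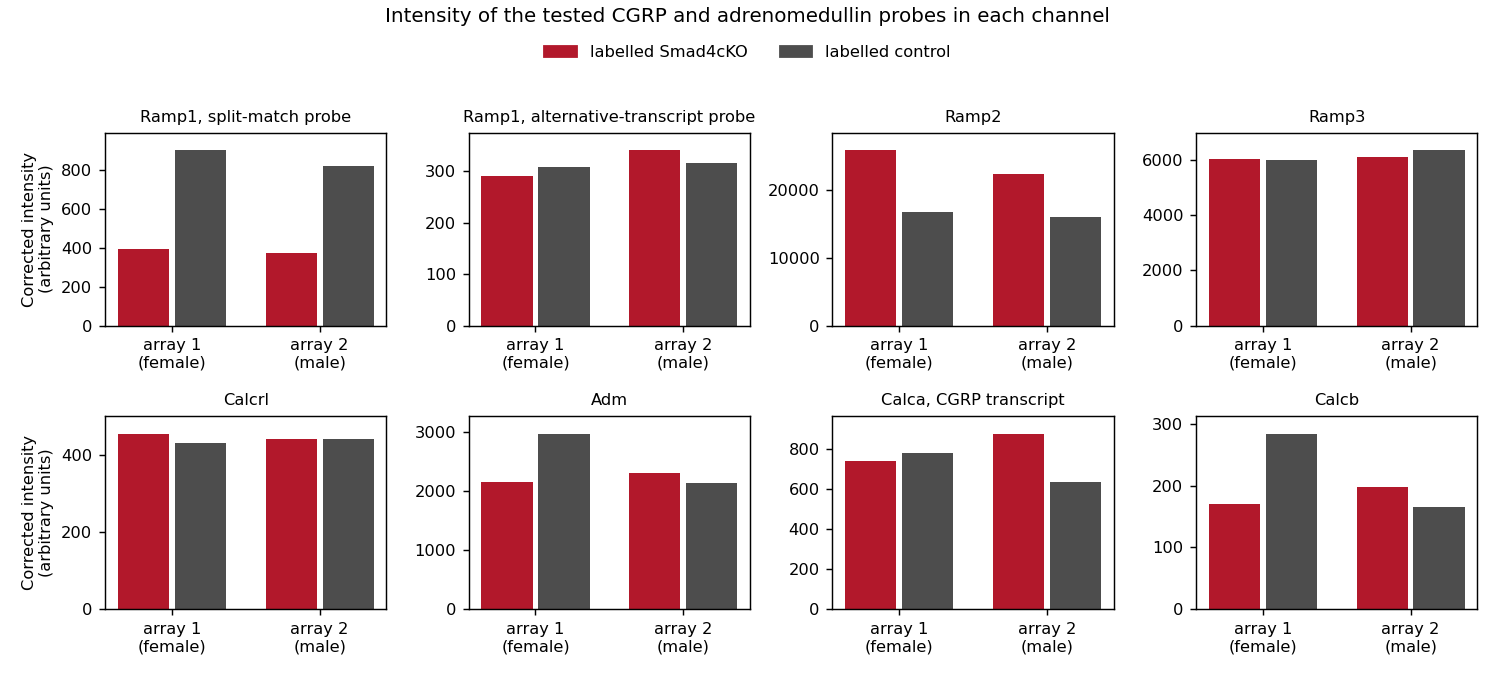
Corrected intensity (arbitrary units, linear axis from 0) of the 8 tested probes of the CGRP and adrenomedullin genes, with the labelled Smad4cKO channel in red and the labelled control channel in grey, 1 bar per channel and array. The split-match Ramp1 probe is at 394 and 373 in the labelled Smad4cKO against 900 and 818 in the labelled control, and the alternative-transcript Ramp1 probe is between 291 and 341 in all 4 channels.

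The probes of a gene did not always share a large ratio on this array. A rule of 1.5-fold or more, the same way on arrays 1 and 2, was passed by 136 tested probes dimmer in the channel labelled Smad4cKO (0.51% of 26669) and by 121 brighter (0.454%). Among the 8 tested probes of the CGRP and adrenomedullin genes, 1 was dimmer by the rule, the split-match Ramp1 probe, and 0 were brighter. That probe was the reason for choosing the genes, so nothing is read from this count. No tested probe of these genes (0 of 8) was past 1.5-fold in opposite directions on the arrays, as 1.33% of all tested probes were. Of 4377 genes with 2 or more tested probes, 56 had a probe past the rule. In 24 of the 56 another probe passed in the same direction, and in 32 no other probe did, near misses included. In 8 of the 56 (14.3%), Ramp1 itself among them, another tested probe had a mean log2 ratio within 0.1 of 0.

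The genes around Ramp1 did not share its ratio. Within 200000 bases on either side of the split-match probe, no tested probe of another gene passed the 1.5-fold rule. Lrrfip1, upstream, had 3 tested probes with means of 0.03, -0.10 and -0.10. Ube2f, downstream, had 2 with means of 0.01 and 0.01. The tested neighbour farthest from 0 was the Kelch family gene Klhl30, at -0.36 on array 1 and -0.35 on array 2.

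Ramp2, which forms an adrenomedullin receptor with CALCRL, was brighter in the Smad4cKO-labelled RNA on each array, opposite in sign to the split-match Ramp1 probe. Its probe, A_55_P2101336, lies at chr11:101109501-101109560, plus strand. Its corrected intensity was 25903 and 22303 in the channel labelled Smad4cKO, against 16737 and 16009 in the channel labelled control. These intensities too are compared within an array only. The log2 ratio was 0.63 on array 1 and 0.48 on array 2, with a mean of 0.55 ± 0.11 (SD, n = 2), or 1.47-fold. The fold was 1.55 on array 1 and 1.39 on array 2, so array 2 kept it short of the 1.5-fold rule.

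Ramp3, which also forms an adrenomedullin receptor, was nearly equal in the channels. Its probe, A_55_P2101340, lies at chr11:6577416-6577475, plus strand. Its corrected intensity was 6041 and 6100 in the channel labelled Smad4cKO and 5981 and 6358 in the channel labelled control, with a mean log2 ratio of -0.02 ± 0.05 (SD, n = 2). A probe named LOC100046186 shares a run of 52 bases with the Ramp3 probe and overlaps it at chr11:6577424-6577483 (mm9). It gave -0.12 and 0.07 on arrays 1 and 2, so a second probe at the same place also had ratios near 0.

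Calcrl, the receptor that CGRP and adrenomedullin share, was read by probe A_52_P58949 at chr2:84173073-84173132, minus strand. It had intensities of 455 and 442 in the channel labelled Smad4cKO and 430 and 441 in the channel labelled control. The mean log2 ratio was 0.04 ± 0.05 (SD, n = 2). Of the receptor side, Ramp1 by 1 of its 2 tested probes and Ramp2 therefore stood apart from 0 in the same direction on both arrays, while Ramp3 and Calcrl stayed within 0.08 of 0 on each array.

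**Figure D2:**
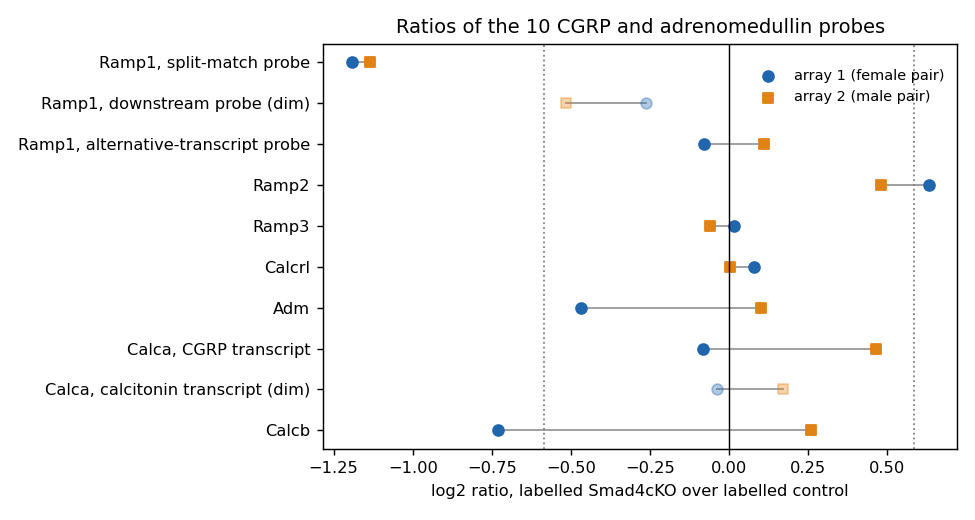
Log2 ratio of labelled Smad4cKO over labelled control for the 10 probes on array 1 (circles, female pair) and array 2 (squares, male pair), with dotted lines at 1.5-fold and pale symbols for the 2 probes not well above background. The split-match Ramp1 probe is near -1.16 on both arrays, Ramp2 lies at 0.63 and 0.48, and Adm, Calcb and the CGRP transcript of Calca have opposite signs on the arrays.

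None of the peptide genes had the same sign on both arrays. Adm, which encodes adrenomedullin, was read by probe A_51_P265571 at chr7:117773088-117773147, plus strand. It had intensities of 2144 and 2295 in the channel labelled Smad4cKO and 2966 and 2140 in the channel labelled control. Only array 1 showed a dimmer Smad4cKO-labelled channel, and the log2 ratios were -0.47 and 0.10 (mean -0.18 ± 0.40, SD, n = 2). The groups overlapped.

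The CGRP transcript of Calca had intensities of 741 and 879 in the channel labelled Smad4cKO and 784 and 638 in the channel labelled control. The log2 ratios were -0.08 on array 1 and 0.46 on array 2 (mean 0.19 ± 0.38, SD, n = 2), which is within the spread between the arrays. The calcitonin transcript of Calca was not well above background in any of the 4 channels (raw signals of 1.81 to 2.15 times the local background), whereas the CGRP transcript's probe was well above background in all 4. Calcb encodes the second form of CGRP, and its probe, A_51_P406157, lies at chr7:121866534-121866593, plus strand, 91271 bases from the CGRP probe of Calca on chromosome 7. It had intensities of 171 and 198 in the channel labelled Smad4cKO and 284 and 166 in the channel labelled control. Its log2 ratios, -0.73 and 0.26, were the farthest apart among the tested probes of these genes (mean -0.24 ± 0.70, SD, n = 2).

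For Adm, Calca and Calcb the red channel was the brighter on both arrays, by a mean of 0.28, 0.27 and 0.50 log2 units. Together with the alternative-transcript probe of Ramp1 that made 4 of 8 probes brighter in red on both arrays, against 30% of all tested probes. Opposite signs on the arrays were frequent everywhere: 60.3% of all tested probes had them, as did 5 of the 8 here. The same sign on both arrays was found for 39.7% of all tested probes and for 3 of the 8 here, namely the split-match Ramp1 probe, Ramp2 and Calcrl. Dye and sex cannot be told apart in this design. The plane of the ratios on arrays 1 and 2 shows where the probes lie among all tested probes.

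**Figure D3:**
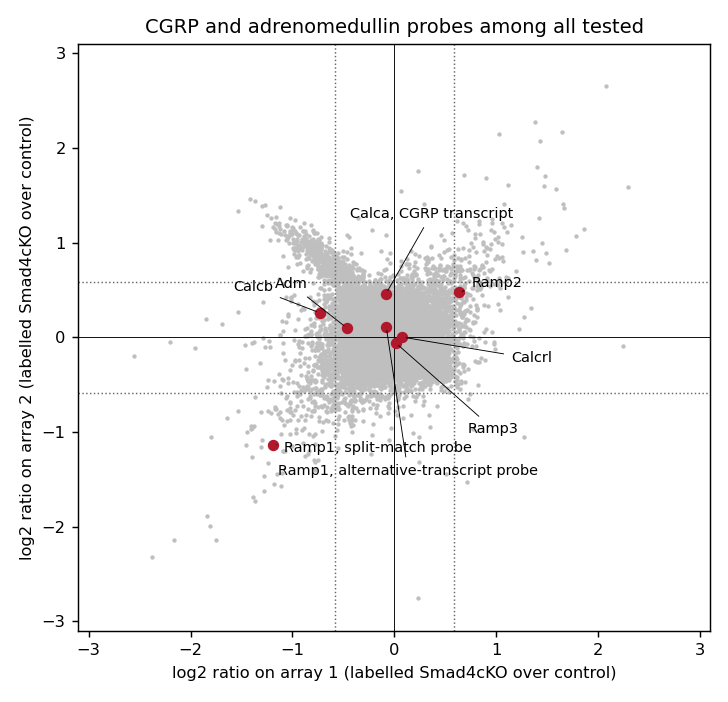
Log2 ratio (labelled Smad4cKO over labelled control) on array 1 against array 2 for the 26669 tested probes (grey) and the 8 tested probes of the CGRP and adrenomedullin genes (red), with dotted lines at 1.5-fold. The split-match Ramp1 probe lies at -1.19 and -1.13 in the lower left corner past both lines, and Calcb and Adm lie at the upper left, where red is the brighter channel on both arrays.

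The genes most like the split-match Ramp1 probe were sought by distance in this plane, over 2 arrays. The 5 nearest named genes were Nwd2, the helix-loop-helix gene Msc, the neuropeptide gene Cartpt, Pdzrn4 and the tight junction gene Cldn1. They lay within 0.12 to 0.14 log2 units of it. Their mean log2 ratios were -1.19, -1.14, -1.15, -1.14 and -1.06 in this order.

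Related peptides and receptors, a list of 19 genes with 15 tested, had 0 members past the 1.5-fold rule in either direction and a median log2 ratio of -0.01. Over all 21237 tested genes, each by its brightest probe, the rule called 0.49% brighter and 0.523% dimmer, and the median was 0.0047. Calcr, the calcitonin receptor that also pairs with RAMPs to bind amylin, gave 0.55 on array 1 and 0.68 on array 2 (mean 0.62 ± 0.09, SD, n = 2), so array 1 kept it short of the rule. Gpr182, a receptor of endothelial cells once proposed to bind adrenomedullin, gave 0.67 and 0.25, and Adcyap1r1, the PACAP receptor, gave 0.35 and 0.49. Vipr2, a receptor for vasoactive intestinal peptide, gave -0.24 and -0.45. Ackr3, a scavenger receptor for chemokines and adrenomedullin, gave -0.69 and -0.15, and Crcp, which encodes a component linked to CGRP receptor signalling, gave 0.06 and -0.14. Ackr3 and Crcp were picked after their values were seen. Adm2 and the amylin gene Iapp did not pass the brightness filter.

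Genes of peptide processing and breakdown had 0 of 18 tested members past the rule and a median of -0.07. Scg5, a chaperone of prohormone convertase, gave -0.92 and -0.40, and Scg2, a granin of secretory granules, gave -0.45 and -0.33. Mme, the peptidase neprilysin, gave -0.21 and -0.71, and the convertase gene Pcsk5 gave -0.26 and -0.41. Genes of Gs protein, cyclic AMP and receptor desensitisation, the route by which CALCRL signals, had 0 of 48 tested members past the rule and a median of 0.01. Signs differed between the arrays in 29 of the 48. The phosphodiesterase gene Pde4b gave -0.57 and -0.17, the receptor kinase gene Grk3 -0.35 and -0.27, the adenylyl cyclase gene Adcy9 -0.25 and -0.21, and the regulatory kinase subunit gene Prkar2a 0.25 and 0.16.

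Among effectors and regulators of smooth muscle relaxation, in either direction, 0 of 13 tested genes were brighter and 1 was dimmer by the rule, with a median of -0.05. The dimmer gene was Kcnma1, the large-conductance calcium-activated potassium channel. Its brightest probe had intensities of 686 and 726 in the channel labelled Smad4cKO and 1291 and 1156 in the channel labelled control, and a mean log2 ratio of -0.79 ± 0.17 (SD, n = 2). With the mean of its 3 tested probes Kcnma1 no longer passed. Kcnj8, a pore subunit of ATP-sensitive potassium channels that CGRP opens in vessels, gave -0.53 and -0.57. Ppp1r12a and Ppp1r14a, which regulate myosin phosphatase, gave means of 0.34 and 0.33. In all 4 of these pathway lists limma, a linear model over all tested probes, called 0 genes at an adjusted p under 0.05; over the whole array it called 0 probes brighter (0%) and 2 dimmer (0.0075%), both of Fndc1, and at an unadjusted p under 0.05 it found 558 brighter and 755 dimmer. Limma's counts over the whole array depended on the processing: it called 147 probes brighter and 163 dimmer from processed signals, and 337 brighter and 456 dimmer with a trend and robust empirical Bayes. Under both it called Calcr and Kcnma1, and with the trend also Scg2, Scg5 and Kcnj8. From the authors' values it called Calcr as well. The probes of Calcr (intensities of 158 to 254) and Scg2 (172 to 246) were about as dim as that of Calcb (166 to 284), which limits their ratios.

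Markers of cells known to express or respond to these genes were read on the same arrays, and fewer cells of a type cannot be told apart from less RNA per cell in whole ureters. Sensory neuron markers, the cells in which Calca and Calcb are usually found, had 4 of 20 tested members dimmer by the rule and 0 brighter. The list's median was -0.36, with -0.72 for array 1 and -0.14 for array 2. The 4 were Ntrk3, the neurotrophin-3 receptor, at -0.97 ± 0.0011 (SD, n = 2), and the neuronal intermediate filament genes Prph, Nefl and Nefm, with means of -0.86, -0.85 and -0.85. The summed processed signal of the list was 34303 and 37982 in the channel labelled Smad4cKO and 39720 and 41760 in the channel labelled control. Such a sum leans on the brightest members, here Ntrk2, whose log2 ratios were 0.39 and 0.04. Several markers of nociceptive neurons (Trpv1, Trpa1, Scn9a, Scn10a and Mrgprd) and the sensory lineage factor Pou4f1 did not pass the brightness filter. Autonomic neuron and glia markers had 1 of 14 dimmer, Hand2 (-0.74 ± 0.14, SD, n = 2), and a median of -0.18, with Dbh at -0.74 and -0.31 and the glial gene S100b at 0.69 and 0.58. Their summed signal was 11155 and 12793 in the channel labelled Smad4cKO and 13347 and 13776 in the channel labelled control. The part of nerves in the ratio of Ramp1 was not tested.

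Smooth muscle markers, cells on which CGRP acts, ran the other way, with 7 of 14 tested members brighter by the rule, 0 dimmer and a median of 0.51. Among the 7 were Myh11 (2.37), Cnn1 (1.91), Actg2 (1.75) and Acta2 (1.59), as mean log2 ratios. The list's summed signal was 143267 and 155112 in the channel labelled Smad4cKO, against 111174 and 139214 in the channel labelled control. This sum leans on the brightest members, such as Myl9, whose log2 ratios were 0.28 and -0.26. On both arrays 10 of the list were brighter and 1 was dimmer, Synpo2 (-0.91 and -0.05), and in 3 the sign differed. The split-match Ramp1 probe thus had the opposite sign to the median of this list. The part of muscle in the ratio of Ramp1 was not tested.

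Endothelial markers, cells in which Ramp2 and Calcrl are usually found, had 0 of 19 tested members past the rule and a median of 0.12, with 10 brighter and 2 dimmer on both arrays. Their summed signal was 80530 and 87857 in the channel labelled Smad4cKO and 75842 and 85477 in the channel labelled control. Clec14a gave a mean of 0.27, Tie1 0.20, Eng 0.20 and Egfl7 -0.22, all smaller in size than the 0.55 of Ramp2. Lymphatic markers had 1 of 7 tested members past the rule, the neurotensin gene Nts (-0.78 and -1.40), and a median of 0.14, with Mmrn1 at 0.54, Ccl21a at 0.43 and Pdpn at -0.26. The lymphatic marker Prox1 did not pass the brightness filter, and Flt4 was dim, with intensities of 186 to 213. The part of vessels in the ratio of Ramp2 was not tested.

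Hypoxia genes, listed because Adm is induced by low oxygen, had 0 of 15 members past the rule and a median of -0.06 (0.0072 on array 1, -0.19 on array 2), with Ankrd37 at -0.24, Pdk1 at -0.22, P4ha1 at -0.21 and Ndrg1 at 0.15. Urothelial markers had 0 of 15 tested members past the rule and a median of 0.07, with Upk3a at -0.31, Cdh1 at 0.26, Krt5 at 0.26 and Trp63 at 0.10. Leukocyte markers had 0 of 15 past the rule and a median of 0.18, which was 0.32 on array 1 and -0.05 on array 2, and 10 of the 15 had opposite signs on the arrays. Those with the same sign included Mrc1 at 0.42, Kit at -0.21, Ptprc at 0.18 and Cd68 at 0.18. Limma called 0 genes in any of these 8 marker and hypoxia lists, but other processing gave calls. From processed signals it called 6 smooth muscle markers brighter, and 4 sensory neuron markers and 1 lymphatic marker dimmer. From the authors' values it called 5 smooth muscle markers brighter, and with an offset of 10 in the background correction it called 3. Myh11 was called brighter without background subtraction, and also with only probes above background in both channels. With a trend and robust empirical Bayes it called 7 smooth muscle markers, 1 lymphatic and 1 autonomic or glial marker brighter, and 7 sensory neuron, 4 autonomic or glial and 1 lymphatic marker dimmer. Markers of the labelled tissue were present: 15 of 16 urothelial and 14 of 15 smooth muscle markers passed the brightness filter, with Psca and Lmod1 short of it.

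**Figure D4:**
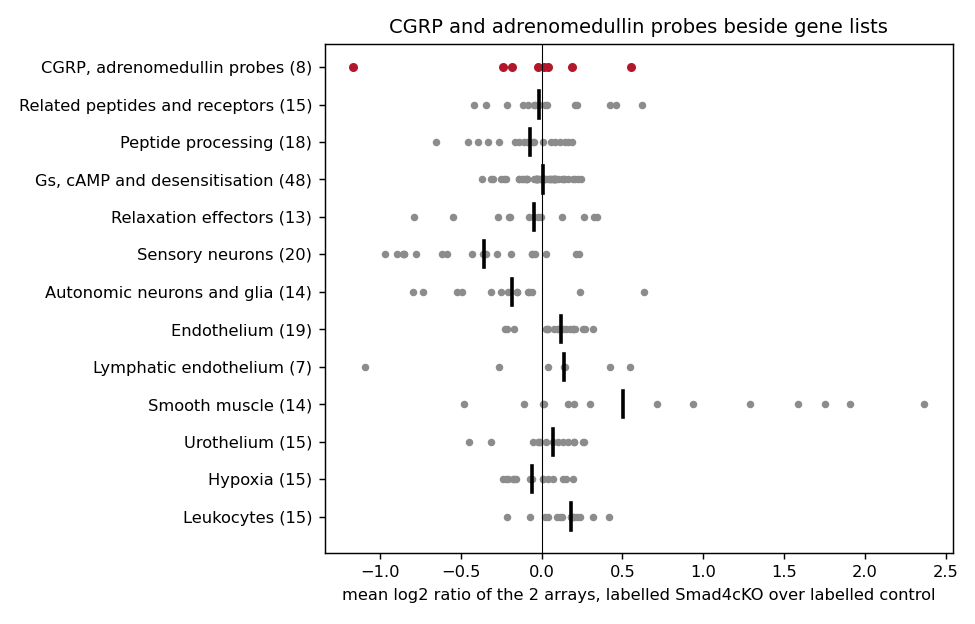
Mean log2 ratio of both arrays (labelled Smad4cKO over labelled control) for the 8 tested probes of the CGRP and adrenomedullin genes (red, top) and for each tested gene of the 12 lists (grey), with black bars at the list medians and the number of points in brackets. The smooth muscle list lies furthest right (median 0.51) and the sensory neuron list furthest left (median -0.36), and the split-match Ramp1 probe lies at -1.16.

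The tested Ramp1 probes differed from each other under each way of processing that was tried. The split-match probe ranged in mean log2 ratio from -1.16 to -1.37 over 6 settings and passed the 1.5-fold rule in each. The alternative-transcript probe stayed between -0.03 and 0.02, and its sign changed between settings. Ramp2 gave means of 0.55 to 0.56, but its ratios were 0.27 and 0.84 with median centring in place of loess.

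**Figure D5:**
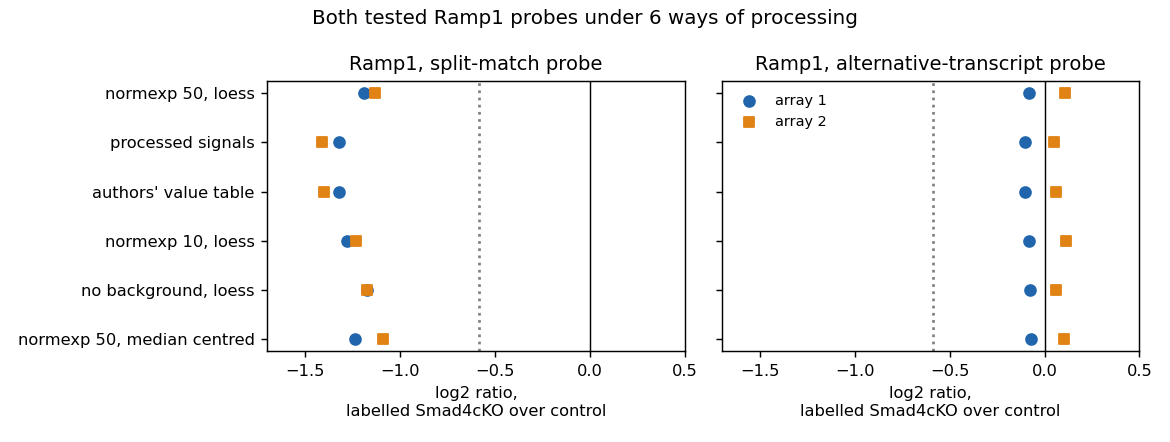
Log2 ratio of labelled Smad4cKO over labelled control for the split-match (left) and the alternative-transcript (right) Ramp1 probe on array 1 (circles) and array 2 (squares) under 6 ways of processing, with a dotted line at 1.5-fold. The split-match probe lies between -1.09 and -1.41 in every setting and the alternative-transcript probe between -0.11 and 0.11.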

How the data were processed

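The deposited scanner files hold an intensity per spot and channel, per the file headers. The submitters' processing notes name Agilent Feature Extraction 10.7.3.1. Background subtraction and dye normalization went into the software's processed signals, and the log10 ratio of red over green and its error come from them, per the file headers. The authors' value table gives each deposited ratio as a signed fold, negative for ratios under 1 after inversion. Set against the processed signals it runs as labelled control over labelled Smad4cKO, with its software not given in the sources used here. Probe positions are on mm9. The RNA input was 200 ng per channel, per the labels.

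Mean signals were corrected with normexp (offset 50), loess-normalized within each array with control spots at weight 0, and turned to labelled Smad4cKO over labelled control (limma 3.58.1, R 4.3.3). Of 44397 spots, 1377 control spots were left out, and 237 and 221 outlier spots on arrays 1 and 2. Probes were tested, each apart, where 1 labelled group was well above background on arrays 1 and 2. A ratio also had to remain on both arrays after outlier spots were left out. Spots well above background made up 69.0% to 70.3% of the labelled Smad4cKO channels and 68.3% to 70.1% of the labelled control channels, and 0 were saturated. log2 ratios were fitted with lmFit and eBayes (Benjamini-Hochberg, 1 residual and 5.04 prior degrees of freedom), tested on simulated data. Genes in lists stand by their brightest tested probe, with symbols from a RefSeq table (GRCm38.p6). Named genes are all members, up to 4 per list whose sign the arrays shared (largest by the smaller ratio), the 5 genes nearest the leading Ramp1 probe, Smad4, Tbx18 and Myh11; 1 gene so chosen is not reported here. Members and lists were chosen with earlier results of these data known.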

Additional observations from a re-analysis of the deposited data

Results flagged for a closer look

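In 5 tested probes of these genes the array of the female pair and the array of the male pair had ratios of opposite sign. Each sex had 1 array, the dyes were exchanged between them, and the difference was not tested. As the log2 ratio on array 2 minus that on array 1, the difference was 0.99 for Calcb, 0.57 for Adm and 0.54 for the CGRP transcript of Calca. It was 0.19 for the alternative-transcript probe of Ramp1 and -0.074 for Ramp3, both with ratios near 0 on each array.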

How the results depend on the processing

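The log2 ratio of the split-match Ramp1 probe was -1.37 from processed signals, -1.36 from the authors' values and -1.26 with normexp offset 10, and ranged from -1.19 to -1.13 on single arrays; the other settings moved it by less than the spread between the arrays. The 1.5-fold rule found 218 probes brighter and 248 dimmer from processed signals and 207 and 226 from the authors' values. On 1 array alone it found 302 to 791 brighter and 280 to 869 dimmer. Probes at 1.5-fold in opposite directions numbered 354, and 1739 with median centring. Limma's counts, brighter and dimmer, were 147 and 163 from processed signals, 65 and 60 from the authors' values, 36 and 36 with normexp offset 10, 1 and 5 without background subtraction, 1 and 5 with probes above background in both channels, and 337 and 456 when empirical Bayes was run robustly with a trend. It called 0 dimmer with median centring and 1 dimmer with 1 probe a gene. The causes were not tested. Among the lists, Kcnma1 was lost with the mean of its probes, and processed signals added 1 brighter gene among related receptors, 1 dimmer relaxation effector and 1 brighter autonomic or glial gene. The fit of within-array ratios is itself paired. It leaves no replicate number to add as a further block, so no separate paired analysis was run. The Calcb probe and both dim probes lie near background, which limits their ratios. The same limit holds for the Calcr and Scg2 probes, which were about as dim as that of Calcb.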
